A study of Homo sapiens with 4 samples.

Results

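The HMGA2 locus was described from H3K27ac peak lists of 4 libraries, as the HMGA2 gene body on chromosome 12 with 200 kb on either side (chr12:65624460-66166291, hg38). The gene was chosen by the covered length of its stitched cluster of distal peaks, one of the longest in both cell lines, so that the presence and length of that cluster are the ground of the choice and not a result. Within this window lay 111 of the 134812 peaks of all lists. They comprised 0 peaks of MDA-MB-231 replicate 1, 41 of MDA-MB-231 replicate 2, 37 of Hs578T replicate 1 and 33 of Hs578T replicate 2.

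Both MDA-MB-231 and Hs578T are long-established human cell lines, of triple-negative breast cancer, with a mesenchymal character. All 4 libraries had the same history per the labels: 8 h of starvation, 48 h with 10 ng/ml TWEAK, the ligand of the receptor Fn14, and 72 h of washout, a time that differs from the longer one named in the study's text. Libraries of untreated cells or of cells under TWEAK were not analysed here, so nothing below is an effect of TWEAK. The labels do not say whether the 2 replicates of a line came from separate cultures, and the lines were not checked against marker genes.

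The 4 lists differed in size, and they did not group by line. MDA-MB-231 replicate 1 held 209 peaks in all, its second replicate held 43353, and the Hs578T lists held 46330 and 44920. Genome-wide, the Jaccard index (bases covered in both lists over bases covered in either) was 0.000667 for the MDA-MB-231 pair, 0.780 for the Hs578T pair, and 0.770 and 0.759 for MDA-MB-231 replicate 2 against Hs578T replicates 1 and 2. The smallest list (MDA-MB-231 replicate 1) stands apart from the rest, and its line, library and label cannot be told apart as the source, so its zeros and the means of that line are given as values of these lists only. MDA-MB-231 replicate 2 was nearly as close to the Hs578T lists as these were to each other. Its label was not checked either, so its line rests on the label alone. Series of 3 values below are in the order MDA-MB-231 replicate 2, Hs578T replicate 1, Hs578T replicate 2, and these are called the large lists. No test between lines was made, because 2 libraries a line allow no p under 0.333 in a two-sided exact permutation test. Sequencing depth is unknown.

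HMGA2 encodes an architectural chromatin protein that binds AT-rich DNA through AT-hooks encoded by its first exons. The gene is active in embryonic tissue, silent in most adult cells and switched on again in many tumours, where it is linked to invasion and epithelial to mesenchymal transition. Its long last exon carries target sites of the let-7 microRNAs, and the third intron, which is very long, is where chromosome breaks in lipomas, uterine leiomyomas and pleomorphic adenomas separate the AT-hooks from the rest. Acetylation of histone H3 at lysine 27 marks active promoters and enhancers, and the mark can spread into broad domains at strongly regulated genes.

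By GENCODE release 44, HMGA2 (ENSG00000149948.14) runs on the plus strand from 65824460 to 65966291, a body of 141832 bp, and its canonical start site is at 65824483. Exons 1, 2 and 3 lie at 65824483-65825381, 65828001-65828087 and 65838519-65838569. The third intron (65838570-65951382) takes 112813 bp of the body, and exons 4 and 5 follow at 65951383-65951415 and 65963245-65966291. The gene RPSAP52, a transcribed pseudogene on the minus strand, reaches from 65758020 to 65826997 and so overlaps the HMGA2 start. Inside the third intron lie the antisense lncRNA gene HMGA2-AS1 (65851340-65882167) and the unnamed lncRNA gene ENSG00000256083 (65934777-65948479).

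Peaks of the large lists that overlapped were merged into 32 regions, numbered from the upstream edge. Fold enrichment, the ratio of the H3K27ac signal to the local background as given by the authors for each peak, sets the order of peaks within a list, and its size was not compared between lists. Fold and q-value are each a single value for a whole peak, whatever its width. They do not show how high the signal rises inside a wide peak, and the effect of width or splitting on them was not tested. The following 100 bases of hg38 (plus strand) are from the 3 distal regions with the highest mean fold enrichment, all far upstream of the HMGA2 start site. They are shown because these are the strongest distal regions of the locus by that mean, and each is centred on the match to the AP-1 motif (TGACTCA or TGAGTCA, in capitals) nearest to the middle of its region.
Region 1, chr12:65635038-65635137: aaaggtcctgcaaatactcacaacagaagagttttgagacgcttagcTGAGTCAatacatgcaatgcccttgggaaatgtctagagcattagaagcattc
Region 5, chr12:65649165-65649264: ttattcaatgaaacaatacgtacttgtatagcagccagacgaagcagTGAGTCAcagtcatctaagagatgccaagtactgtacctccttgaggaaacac
Region 6, chr12:65667057-65667156: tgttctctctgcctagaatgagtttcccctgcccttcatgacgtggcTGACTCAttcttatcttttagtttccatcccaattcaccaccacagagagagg

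The RefSeq promoter table (GRCh38.p14) had no entry for HMGA2. Its entries for HMGA2-AS1, of 300 bases around a start, are given because both lie inside the widest peak of the third intron in all 3 large lists. They read 5′ to 3′ on the minus strand, and capitals mark the TEAD motif (GGAATG, either strand).
HMGA2-AS1 start a, chr12:65882276-65882575: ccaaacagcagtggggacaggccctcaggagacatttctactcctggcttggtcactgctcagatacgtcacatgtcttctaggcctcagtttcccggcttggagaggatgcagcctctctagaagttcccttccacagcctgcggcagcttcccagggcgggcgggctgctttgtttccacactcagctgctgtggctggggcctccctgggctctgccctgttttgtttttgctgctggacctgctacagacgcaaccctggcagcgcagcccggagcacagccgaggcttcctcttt
HMGA2-AS1 start b, chr12:65881529-65881828: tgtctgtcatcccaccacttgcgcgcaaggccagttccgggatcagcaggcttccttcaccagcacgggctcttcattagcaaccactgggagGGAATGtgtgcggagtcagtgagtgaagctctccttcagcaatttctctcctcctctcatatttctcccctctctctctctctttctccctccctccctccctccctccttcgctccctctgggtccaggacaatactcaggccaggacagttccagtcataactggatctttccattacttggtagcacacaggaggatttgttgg
Start a held 0 matches to the AP-1, TEAD or NF-κB motif and start b held 1, to TEAD. Of 35116 RefSeq promoters of this length, 14.0% held the TEAD letters, 4.95% those of AP-1 and 5.91% the NF-κB motif. The GC content was 60% at start a and 54.3% at start b.

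Peaks covered 128409, 159272 and 155443 bp of the 541832 bp of the window, or 23.7, 29.4 and 28.7% of it, and 0 bp in MDA-MB-231 replicate 1. Hs578T thus had 157358 ± 2708 bp covered (SD, n = 2). A mean for MDA-MB-231, 64204.5 ± 90799 bp (SD, n = 2), describes neither of its lists, and leaving out replicate 1 gives 128409 bp. Both MDA-MB-231 lists lay below both Hs578T lists, but they differed more from each other than MDA-MB-231 replicate 2 did from either Hs578T list. The window held 0.0946, 0.0799 and 0.0735% of the peaks of each large list but 0.157, 0.176 and 0.185% of its covered bases.

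Covered bases were unevenly spread over the locus. The first 50001 bp of the window were covered to 68.5, 73.0 and 78.8%, and the stretch from 1 kb downstream of the start site to the end of exon 3 was covered to 100% in each large list. The third intron was covered to 55.8, 75.4 and 70.0%. Between exon 4 and the end of exon 5 coverage was 31.9, 39.7 and 38.4%, and in the 200000 bp downstream of the gene it was 2.76, 3.91 and 3.96%. The downstream flank was thus the least covered section in every large list, and the upstream side, at 20.1, 22.8 and 24.0%, owed most of its covered bases to its far end.

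**Figure D1:**
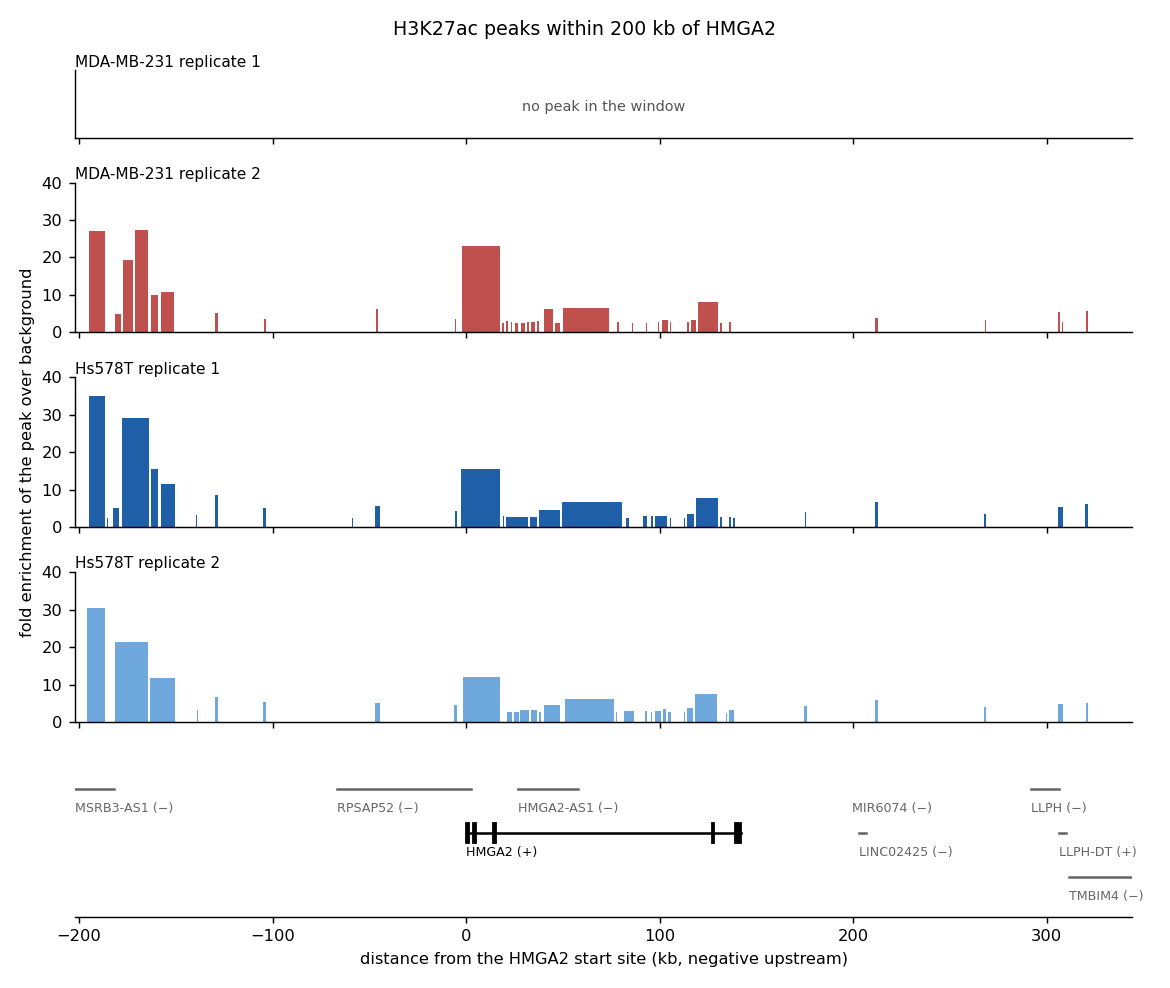
H3K27ac peaks within 200 kb of HMGA2 in the 4 lists, each block spanning a peak on the horizontal axis (kb from the HMGA2 start site) with the authors' fold enrichment as its height, above the genes of the window with their strands. The highest blocks (27.4, 35.1 and 30.5 in the large lists) stand at the far upstream end, a broad promoter block covers the first exons, low blocks line the third intron, and MDA-MB-231 replicate 1 has no peak.

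An upstream block between 65628835 and 65674133, made up mainly of regions 1, 5 and 6, held the strongest peak of each large list in the window. Regions 1 and 5 each held a peak of higher fold than the HMGA2 promoter peak in every large list, whereas region 6 had a lower fold than that peak in MDA-MB-231 replicate 2 and Hs578T replicate 2. Region 1 was a single peak in each large list, at 65629590-65637952 (8363 bp, fold 27.1), 65629595-65638030 (8436 bp, fold 35.1) and 65628835-65638108 (9274 bp, fold 30.5). It overlapped the gene MSRB3-AS1, an antisense lncRNA of the methionine sulfoxide reductase gene MSRB3, and the unnamed lncRNA gene ENSG00000256915 (65622273-65663299). In fold enrichment region 1 ranked 556, 143 and 112 in its list. It was the strongest peak of the window in both Hs578T lists, and second by a small margin in MDA-MB-231 replicate 2.

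Region 5 (65642306-65660488) was divided differently in each list. MDA-MB-231 replicate 2 had 3 peaks there, at 65643063-65646188 (3126 bp, fold 4.94), 65647321-65652436 (5116 bp, fold 19.2) and 65653350-65660136 (6787 bp, fold 27.4). Hs578T replicate 1 had 65642306-65645141 (2836 bp, fold 5.24) and 65646479-65660488 (14010 bp, fold 29.2). A single peak, 65642995-65660233 (17239 bp, fold 21.3), was called in Hs578T replicate 2. The bases covered, 15029, 16846 and 17239 bp, differed less than the number of peaks. The canonical MSRB3-AS1 start site lies within 1 kb of this region, and the start of the processed pseudogene PCNPP3 (65646462) lies inside it. The peaks 65643063-65646188 and 65642306-65645141 were therefore not counted as distal.

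Region 6 was again split in MDA-MB-231 replicate 2 and Hs578T replicate 1 and whole in Hs578T replicate 2. The split peaks were 65661551-65665209 (3659 bp, fold 10.1) and 65666652-65673531 (6880 bp, fold 10.8) in the former, and 65661843-65665149 (3307 bp, fold 15.5) and 65666717-65674066 (7350 bp, fold 11.4) in the latter. The unsplit peak was 65661252-65674133 (12882 bp, fold 11.6). Regions 1, 5 and 6 were called in all 3 large lists. Between them, 3 short regions were each called in 1 list. Region 2 was a peak of Hs578T replicate 1 (65639019-65639262, 244 bp, fold 2.503), region 3 one of MDA-MB-231 replicate 2 (65640463-65640758, 296 bp, fold 2.63) and region 4 one of Hs578T replicate 1 (65640946-65641280, 335 bp, fold 2.79), all of low fold.

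From the block to the promoter the flank held few and small peaks. Region 7 was called at 65685252-65685559 (308 bp, fold 2.53), 65685035-65685577 (543 bp, fold 3.21) and 65685300-65685879 (580 bp, fold 3.25). Region 8 was called at 65694874-65696098 (1225 bp, fold 5.25), 65694905-65696279 (1375 bp, fold 8.47) and 65694721-65696196 (1476 bp, fold 6.75). Region 9 was called at 65719894-65721155 (1262 bp, fold 3.69), 65719517-65721228 (1712 bp, fold 5.12) and 65719669-65721094 (1426 bp, fold 5.46). These regions were present in each large list and, apart from region 7, near the median width of their list (1369, 1389 and 1335 bp). Region 10 was called only in Hs578T replicate 1 (65765353-65765852, 500 bp, fold 2.38), where 2 AP-1 letter matches fall inside it.

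Regions 11 and 12 were the nearest to the promoter on this side. Region 11 lay inside RPSAP52, at 65777916-65779183 (1268 bp, fold 6.28), 65777647-65780041 (2395 bp, fold 5.53) and 65777480-65780164 (2685 bp, fold 5.03). Region 12, about 5 kb upstream of the HMGA2 start site and also inside RPSAP52, was 65818593-65819463 (871 bp, fold 3.60), 65818749-65819585 (837 bp, fold 4.43) and 65818459-65819900 (1442 bp, fold 4.42). In the 44124 bp between regions 9 and 10 and the 38294 bp between regions 11 and 12 no large list had a peak.

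A broad peak covered the HMGA2 promoter and the AT-hook exons in every large list. It ran from 65822565 to 65842047 in MDA-MB-231 replicate 2 (19483 bp, fold 23.1), from 65822002 to 65842163 in Hs578T replicate 1 (20162 bp, fold 15.4) and from 65822744 to 65842149 in Hs578T replicate 2 (19406 bp, fold 11.9). Its borders were close in the 3 lists: the left ends lay 1.92, 2.48 and 1.74 kb upstream of the start site, and the right ends 3.48, 3.59 and 3.58 kb past exon 3, inside the third intron. Exons 1, 2 and 3 and introns 1 and 2 were covered to 100%. By width it ranked 53, 72 and 55 in its list, and its fold exceeded that of 97.3, 91.3 and 88.8% of peaks. The peak also spans the 5′ end of RPSAP52 and the lncRNA gene ENSG00000277945, whose contribution cannot be told apart from that of HMGA2 in a list of peaks.

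HMGA1, the other member of the family, had a promoter peak of a similar shape. It was 15537, 16112 and 15128 bp wide with a fold of 18.3, 12.7 and 9.48, lower than that of HMGA2 in each large list. In MDA-MB-231 replicate 1 the promoters of both genes were without a peak.

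Past exon 3, the third intron was covered by a long run of peaks of low fold. It held 20, 15 and 17 peaks by midpoint, of which 15, 9 and 9 had a fold below 3. Over all peaks of the lists only 9.63, 16.2 and 13.9% had a fold below 3. The weak peaks of the intron had folds from 2.46 to 2.97, from 2.35 to 2.87 and from 2.60 to 2.99, and scores (10 times the −log10 q-value) of 11 to 21, 11 to 25 and 13 to 20. They thus sat close to the limit of the lists, whose largest q-values were 0.0974, 0.0972 and 0.0994. By bases the weak peaks were the smaller share of the intronic peaks, 17355, 21411 and 18710 bp or 27.8, 25.3 and 23.9%.

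**Figure D2:**
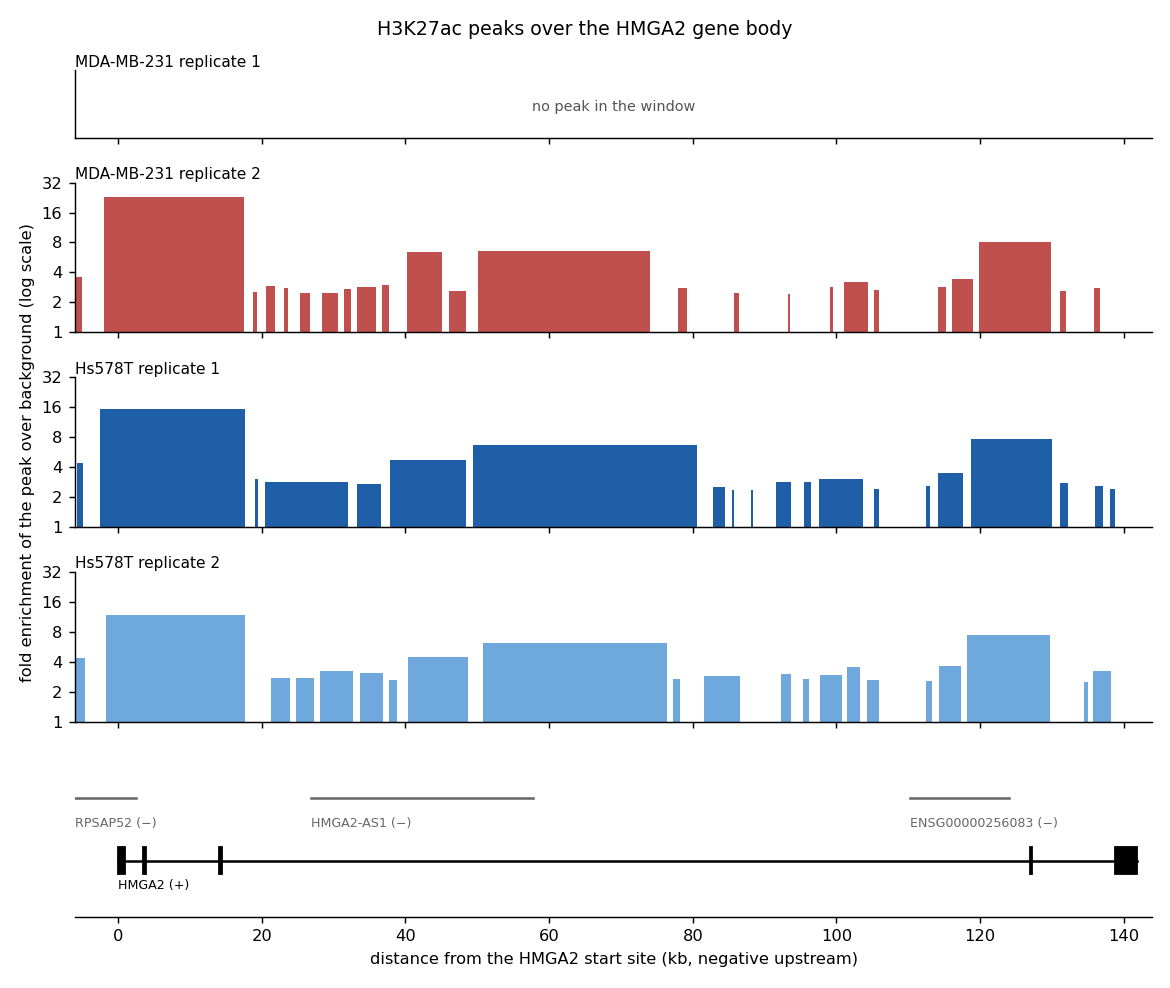
H3K27ac peaks over the HMGA2 gene body in the 4 lists, each block spanning a peak, with its fold enrichment on a log scale starting at 1 and HMGA2 exons as black boxes below. In the large lists the promoter block (fold 23.1, 15.4 and 11.9) ends just past exon 3, a block of 24010 to 31232 bp stands in the middle of the third intron, another covers exon 4, and exon 5 is free of peaks.

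The widest region of the locus was region 17, in the middle of the third intron. In MDA-MB-231 replicate 2 it was a peak of 24010 bp (65874551-65898560, fold 6.55) with a small one of 1228 bp after it (65902450-65903677, fold 2.79). In Hs578T replicate 1 it was 1 peak of 31232 bp (65873849-65905080, fold 6.70). In Hs578T replicate 2 it was a peak of 25563 bp (65875334-65900896, fold 6.27) followed by one of 968 bp (65901734-65902701, fold 2.73). The large peak ranked 25, 19 and 22 by width in its list, while its fold exceeded that of 57.7, 62.9 and 64.2% of peaks. It was thus among the widest peaks of each list and nearer the middle by fold, which is a single value for the whole peak. It contains the HMGA2-AS1 start sites printed above, and HMGA2 exons of other transcripts at 65881743-65882126.

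Next in width were region 13, the promoter peak (20162 bp after merging), and region 5 of the upstream block (18183 bp). Region 24 (65938602-65954460) at the end of the intron holds exon 4 and the start site of ENSG00000256083. MDA-MB-231 replicate 2 had 65938619-65939675 (1057 bp, fold 2.85), 65940567-65943459 (2893 bp, fold 3.40) and 65944321-65954383 (10063 bp, fold 8.18). Hs578T replicate 1 had 65938602-65942116 (3515 bp, fold 3.52) and 65943198-65954460 (11263 bp, fold 7.70). Hs578T replicate 2 had 65938782-65941770 (2989 bp, fold 3.63) and 65942605-65954260 (11656 bp, fold 7.40). The last peak of each list covers exon 4 in full and has the highest fold of the peaks with a midpoint in the intron. By midpoint it is within 2.5 kb of the ENSG00000256083 start site and so was not counted as distal.

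The first stretch of the intron was fragmented to a different degree in each list. Region 14, just past the promoter peak, was called in MDA-MB-231 replicate 2 (65843205-65843862, 658 bp, fold 2.57) and Hs578T replicate 1 (65843504-65843952, 449 bp, fold 3.07) and not in Hs578T replicate 2. Region 15 (65844916-65857240) was a single peak of 11494 bp in Hs578T replicate 1 (65844916-65856409, fold 2.83). In Hs578T replicate 2 the same stretch had 3 peaks, at 65845754-65848383 (2630 bp, fold 2.77), 65849230-65851732 (2503 bp, fold 2.75) and 65852563-65857240 (4678 bp, fold 3.25). MDA-MB-231 replicate 2 had 5 short ones. These were 65845101-65846261 (1161 bp, fold 2.94), 65847583-65848192 (610 bp, fold 2.78), 65849838-65851133 (1296 bp, fold 2.499), 65852851-65855101 (2251 bp, fold 2.49) and 65855930-65856835 (906 bp, fold 2.72). All 9 peaks of region 15 had a fold between 2.49 and 3.25.

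Region 16 (65857672-65873221) rose above that level in its right part. MDA-MB-231 replicate 2 had 65857776-65860310 (2535 bp, fold 2.84), 65861191-65862144 (954 bp, fold 2.97), 65864704-65869526 (4823 bp, fold 6.37) and 65870478-65872914 (2437 bp, fold 2.59). Hs578T replicate 1 had 65857672-65861041 (3370 bp, fold 2.70) and 65862325-65872911 (10587 bp, fold 4.73). Hs578T replicate 2 had 65858080-65861285 (3206 bp, fold 3.12), 65862121-65863242 (1122 bp, fold 2.63) and 65864874-65873221 (8348 bp, fold 4.51). The strongest peak of each list here holds the HMGA2 exon 65867489-65867807 of another transcript.

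Behind region 17 the mark thinned out. Region 18 was 65910202-65910969 (768 bp, fold 2.49) in MDA-MB-231 replicate 2, 65907275-65908908 (1634 bp, fold 2.55) and 65910005-65910247 (243 bp, fold 2.35) in Hs578T replicate 1, and 65906015-65911040 (5026 bp, fold 2.92) in Hs578T replicate 2. Region 19 was called only in Hs578T replicate 1 (65912540-65912867, 328 bp, fold 2.35). Region 20 was 65917673-65918086 (414 bp, fold 2.46), 65916094-65918146 (2053 bp, fold 2.87) and 65916807-65918128 (1322 bp, fold 3.04). No peak of these regions had a fold above 3.04. The alternative HMGA2 exons at 65914720-65915447 and 65915059-65915527 lie in the gap of 3226 bp between regions 19 and 20 and were covered in none of the lists.

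Regions 21 and 23 were called in both Hs578T lists and not in MDA-MB-231 replicate 2. Region 21 was 65919907-65920914 (1008 bp, fold 2.87) and 65919856-65920673 (818 bp, fold 2.69), and region 23 was 65936939-65937459 (521 bp, fold 2.58) and 65936904-65937781 (878 bp, fold 2.60). Both had folds below 3 in both lists. Between them, region 22 (65922110-65930466) was called in every large list. MDA-MB-231 replicate 2 had 65923628-65924032 (405 bp, fold 2.87), 65925480-65928820 (3341 bp, fold 3.22) and 65929748-65930422 (675 bp, fold 2.67). Hs578T replicate 1 had 65922110-65928227 (6118 bp, fold 3.03) and 65929681-65930440 (760 bp, fold 2.41). Hs578T replicate 2 had 65922198-65925193 (2996 bp, fold 2.99), 65926013-65927816 (1804 bp, fold 3.55) and 65928698-65930466 (1769 bp, fold 2.64). The longest gap of the intron, 6437 bp, followed at 65930467-65936903.

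Together the peaks of the large lists covered 93931 bp of the third intron, and 18882 bp, or 16.7%, were covered by none. All 3 lists shared 54186 bp, which is 48.0% of the intron and 57.7% of what any list covered there. Bases covered in both Hs578T lists and not in MDA-MB-231 replicate 2 came to 18044, against 2092 covered in MDA-MB-231 replicate 2 alone. These bases were not counted over the genome, so they have no background here. In all, the large lists covered 81.8, 90.7 and 83.9 Mb, more in both Hs578T lists than in MDA-MB-231 replicate 2. In the upstream side, unlike the intron, 73.6% of the covered bases were shared by all 3.

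**Figure D3:**
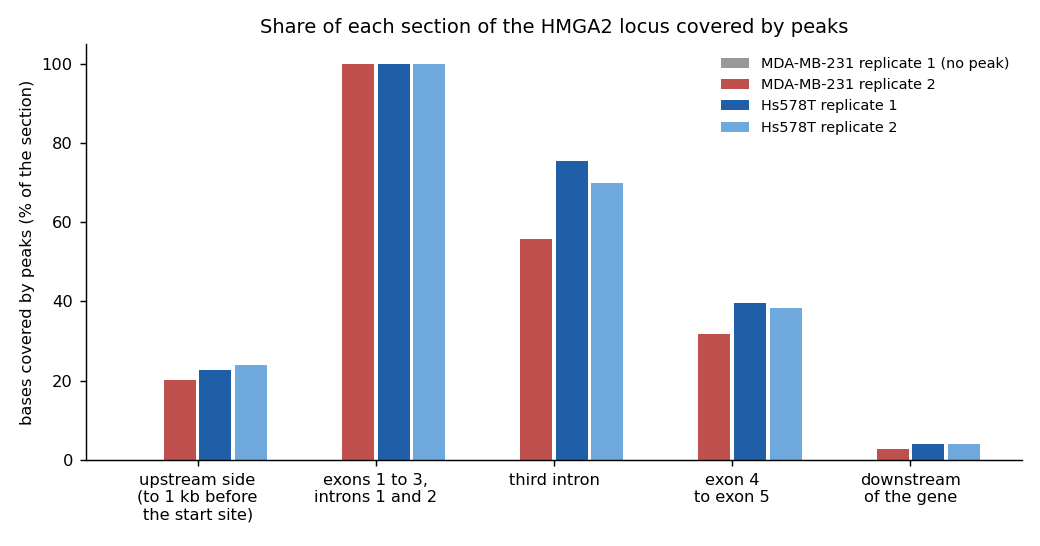
Percentage of each section of the HMGA2 locus covered by peaks, as bars from 0, with 1 bar per list and no value for MDA-MB-231 replicate 1, which has no peak. The third intron is covered to 55.8, 75.4 and 70.0% in the large lists and the downstream flank to 2.76, 3.91 and 3.96%.

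Intronic and upstream peaks differed in their q-values. Raising the smallest −log10 q kept from 1 to 2 lowered the covered bases of the third intron from 62962 to 49389 bp in MDA-MB-231 replicate 2, from 85091 to 81605 bp in Hs578T replicate 1 and from 78978 to 63264 bp in Hs578T replicate 2. On the upstream side the same step left 39475 of 40079, 44617 of 45361 and 47743 of 47743 bp. At a −log10 q of 20 the intron kept 10540, 43011 and 3580 bp, and the upstream side 31723, 35959 and 40134 bp. At a limit of 30 the intron was down to 3478, 3594 and 3580 bp, which is the part of the promoter peak that reaches into it.

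**Figure D4:**
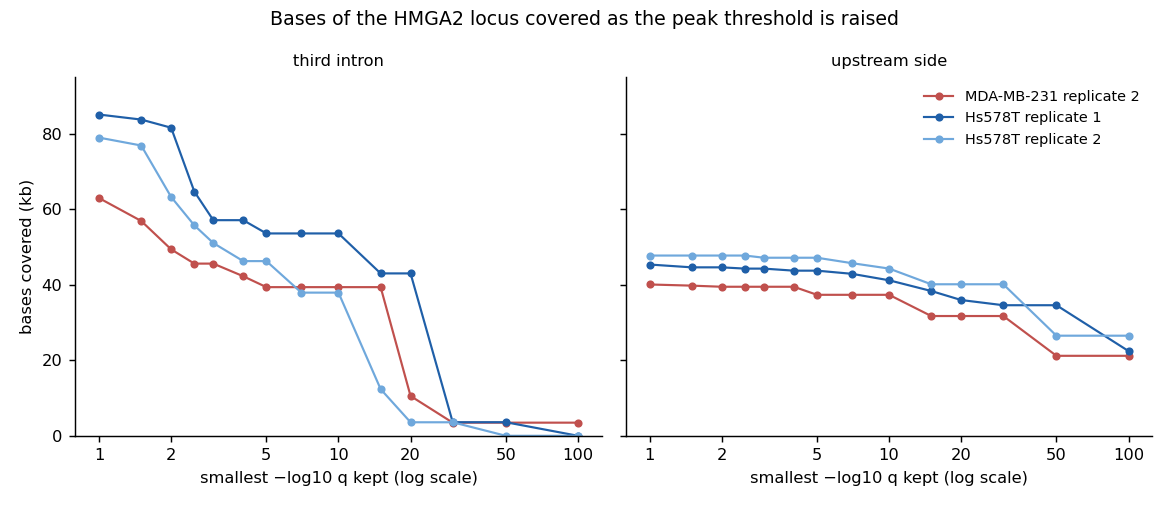
Bases covered (kb) in the third intron and on the upstream side of HMGA2 against the smallest −log10 q of the peaks kept (log scale), with 1 line for each large list. The intronic lines fall from 62962, 85091 and 78978 bp at a limit of 1 to 3478, 3594 and 3580 bp at 30, while the upstream lines still hold 31723, 34584 and 40134 bp there.

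The 3′ side of the gene carried little of the mark. Between exons 4 and 5, region 25 was called in MDA-MB-231 replicate 2 (65955562-65956499, 938 bp, fold 2.59) and Hs578T replicate 1 (65955631-65956757, 1127 bp, fold 2.76), and region 26 in Hs578T replicate 2 alone (65959017-65959449, 433 bp, fold 2.52). Region 27 was 65960330-65961143 (814 bp, fold 2.77) in MDA-MB-231 replicate 2, 65960484-65961582 (1099 bp, fold 2.62) and 65962606-65963223 (618 bp, fold 2.43) in Hs578T replicate 1, and 65960274-65962682 (2409 bp, fold 3.28) in Hs578T replicate 2. Exon 5, which carries the let-7 sites, was covered to 0% in every list, and no peak was called from there to 65999222, a stretch of 35999 bp.

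Downstream of the gene 5 regions were called, each in all 3 large lists. Region 28 was 65999923-66000313 (391 bp, fold 4.89), 65999346-66000351 (1006 bp, fold 4.14) and 65999223-66000469 (1247 bp, fold 4.25). Region 29, next to the pseudogene RPL21P18, was 66035688-66037191 (1504 bp, fold 3.85), 66035605-66037184 (1580 bp, fold 6.68) and 66035564-66037147 (1584 bp, fold 5.99). Region 30 was 66092728-66093252 (525 bp, fold 3.19), 66092241-66093146 (906 bp, fold 3.40) and 66092278-66093232 (955 bp, fold 3.95). These regions were 1247, 1628 and 1012 bp wide after merging, in the range of the narrower regions of the third intron (328 to 2053 bp), and 55049 bp without a peak lay between regions 29 and 30, the longest such stretch of the window.

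Region 31 covers the shared promoter of LLPH and the divergent lncRNA gene LLPH-DT. It had 66130170-66131278 (1109 bp, fold 5.53) and 66132159-66132928 (770 bp, fold 2.86) in MDA-MB-231 replicate 2, 66130052-66133107 (3056 bp, fold 5.34) in Hs578T replicate 1 and 66130260-66133130 (2871 bp, fold 4.80) in Hs578T replicate 2. Region 32, inside TMBIM4, was 66144510-66145738 (1229 bp, fold 5.83), 66144464-66145726 (1263 bp, fold 6.28) and 66144510-66145767 (1258 bp, fold 5.12). Both were close to the median of their list in width or fold, and neither was as strong as the HMGA2 promoter peak.

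Marked chromatin continued past both window edges. The peaks just outside lay 211 kb upstream of the gene body at 65607585-65613432 (fold 11.1), 65601397-65613482 (fold 26.2) and 65607362-65614420 (fold 13.5), the last of them at 210 kb. Downstream, the TMBIM4 promoter peak at 66168496-66170833 (fold 30.3), 66168383-66170739 (fold 28.5) and 66168299-66170806 (fold 21.2) lay 202 kb from the body. The peaks just inside were those of regions 1 and 32. The limit of 200 kb therefore leaves out a strong promoter on the downstream side.

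Of the 32 regions, 22 were called in all 3 large lists, or 68.8%, 4 in a pair of lists and 6 in 1. Over the genome 74.8% of merged regions were called in all 3, so the share at HMGA2 was close to and slightly below the background. In the third intron 7 of 11 regions were called in all 3. The 10 regions missing from a list had folds from 2.35 to 3.07. In peaks, 39 of the 41 of MDA-MB-231 replicate 2 overlapped a peak of Hs578T replicate 1, of whose 37 peaks 29 were overlapped in return. With Hs578T replicate 2 these counts were 38 of 41 and 30 of 33, and between the Hs578T lists 31 of 37 and 32 of 33. The same shares were not counted over all peaks of the lists, so they have no background here.

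The Jaccard index within the window was 0.737 and 0.730 for MDA-MB-231 replicate 2 against Hs578T replicates 1 and 2, and 0.810 for the Hs578T pair. Over the third intron alone these were 0.660, 0.655 and 0.786. The Hs578T lists were thus more alike at HMGA2 than either was with MDA-MB-231 replicate 2, by a wider margin than genome-wide, where the values were 0.780 against 0.770 and 0.759. With 1 pair within a line and 1 usable list of MDA-MB-231, this margin has no error, and whether the line or the library sets it cannot be told apart.

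**Figure D5:**
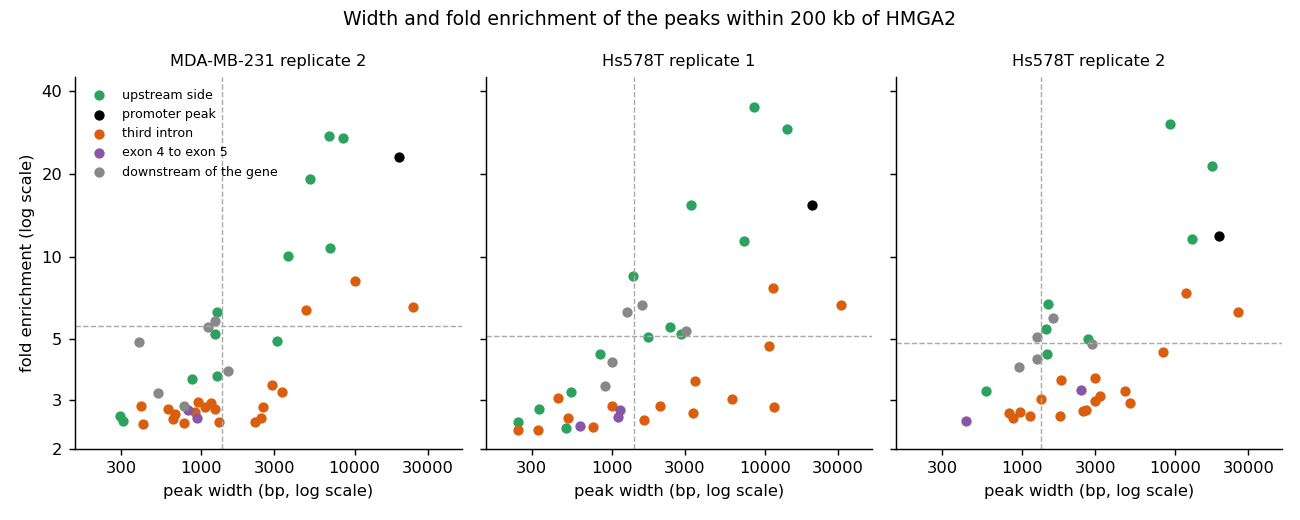
Width (bp) against fold enrichment of each peak within 200 kb of HMGA2 in the large lists, both on log scales, coloured by section, with dashed lines at the median of all peaks of the list (5.61, 5.12 and 4.85 in fold). Most peaks of the third intron lie below the fold median, the highest points are peaks of the upstream side, and the widest peak of each panel (24010, 31232 and 25563 bp) is intronic.

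Stitching distal peaks (midpoint over 2.5 kb from every start site) within 12.5 kb gave the cluster for which the gene was picked. It spanned 65843205-65961143 in MDA-MB-231 replicate 2 with 21 peaks, 65843504-65942116 in Hs578T replicate 1 with 14 and 65845754-65941770 in Hs578T replicate 2 with 16. Distal peaks covered 54174 of its 117939 bp, 73312 of 98613 bp and 66620 of 96017 bp, so that the longest cluster was the least densely covered. By covered bases it ranked 11, 9 and 8 among 19165, 20413 and 19892 clusters. The cluster counts the widest peak, which lies over the HMGA2-AS1 start, as distal because its midpoint is. Where no base of a distal peak may lie within 2.5 kb of a start site, the covered bases fall from a mean of 69966 to 24193.5 bp in Hs578T and from 27087 to 8815.5 bp in MDA-MB-231, whose replicate 1 adds 0 bp. Leaving out the widest peak breaks the cluster, and the lower values count only the part on the promoter side of the break. Distal peaks beyond the break are not in them. The exon 4 peak is not counted as distal in any large list. In both Hs578T lists the gap it leaves is over 12.5 kb and breaks the run, and the peaks between exons 4 and 5 form a cluster of their own. In MDA-MB-231 replicate 2 the gap, from 65943459 to 65955562, is just within 12.5 kb, so the run continues. The upstream block formed a second cluster of 66509, 66685 and 67362 bp, which ranked 56, 64 and 34 by covered bases and holds peaks of far higher fold.

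The third intron was then set beside the other long introns of protein-coding genes, as a description, since covered bases at HMGA2 entered its choice. Among 3789 introns of at least 50 kb, the median share covered was 0.282, 0.449 and 0.353%, and 1819, 1757 and 1805 had no peak. Only 7, 5 and 5 introns, that of HMGA2 included, were covered to the same extent or more. In bases covered within the gene body, HMGA2 had 81825, 105123 and 98808 bp, a level reached by 11, 5 and 7 of 19970 protein-coding genes including itself.

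The genes most like HMGA2 in the bases covered within the body, by the largest absolute log2 ratio to HMGA2 over the large lists, were SMAD3, ENSG00000255872, CRIM1, RUNX1 and FRMD4A. For SMAD3, a transcription factor of TGF-β signalling, this ratio was 0.05 and the covered bases were 84694, 104650 and 98841 bp. SMAD3 also had a like share of its body covered, 64.4, 79.6 and 75.2% against 57.7, 74.1 and 69.7% for HMGA2. For the others the ratio was 0.12, 0.19, 0.19 and 0.23. RUNX1, a transcription factor of the runt family, and FRMD4A are far longer genes, with 7.43 to 7.93% and 11.7 to 13.9% of the body covered.

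Long clusters at NRP1, a co-receptor for semaphorins and VEGF, at TGFB2, a TGF-β ligand, and at the protease gene ADAMTS12 were compared by the same window rule. Peaks covered 19.9, 24.6 and 20.5% of the NRP1 window, 16.5, 21.1 and 20.2% of that of TGFB2 and 10.6, 11.3 and 11.5% of that of ADAMTS12, all below HMGA2 in the same list. Covered bases entered the choice of HMGA2, so this order is a description and not a result. The windows also differed in length, 541832 bp at HMGA2 against 558771, 499284 and 768485 bp at NRP1, TGFB2 and ADAMTS12. Peaks below a fold of 3 made up 48.8, 40.5 and 30.3% of those at HMGA2. At NRP1 they made up 30, 39.1 and 31.0%, at TGFB2 17.4, 39.4 and 33.3% and at ADAMTS12 37.0, 46.4 and 30.8%. The share of weak peaks was therefore highest at HMGA2 in MDA-MB-231 replicate 2, within the range of the other loci in Hs578T replicate 1 and the lowest of the 4 loci, by a small margin, in Hs578T replicate 2. None of the 4 windows held a peak of MDA-MB-231 replicate 1.

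Genes linked to HMGA2 by family, pathway, tumour fusion or position on chromosome 12 were examined next, by a peak within 1 kb of the canonical start site. Over 34 genes of 5 lists, HMGA2 among them, 24, 23 and 23 had such a peak, and 0 in MDA-MB-231 replicate 1. Of 19970 protein-coding genes 58.1, 58.2 and 56.4% had one, so that this count is somewhat above the background and says nothing particular of the lists.

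In the let-7 axis, 5 of 10 genes had a promoter peak in each large list, and they were the same genes. LIN28A and LIN28B, which block let-7 maturation, and TRIM71, a let-7 target, had none. The processing enzymes DICER1 (fold 8.36, 8.59 and 7.04) and DROSHA (fold 6.58, 5.28 and 5.21) had peaks of 1685 to 2723 bp. The RNA-binding genes IGF2BP2 (fold 12.1, 10.9 and 8.33) and IGF2BP3 (fold 11.2, 9.94 and 8.38) had wider ones, whereas IGF2BP1 had none. Of the let-7 host genes, MIRLET7BHG had a peak (7198, 7112 and 7363 bp, fold 10.9, 11.2 and 7.63) and MIR100HG had none at its canonical start.

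Among genes placed downstream of HMGA2, those with a promoter peak in every large list were SNAI2, CCNA2 and E2F1. SNAI2, a repressor of epithelial genes, had peaks of 3627, 3226 and 2998 bp (fold 5.57, 5.73 and 5.18). Cyclin A2 (CCNA2) had a fold of 11.2, 5.58 and 8.56, and E2F1, a cell cycle transcription factor, one of 16.8, 11.8 and 8.05. SNAI1 had a peak of 224 bp (fold 3.30) in MDA-MB-231 replicate 2 alone. TWIST1, a further transcription factor of the epithelial to mesenchymal transition, and CDKN2A, a cell cycle inhibitor locus, had none.

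Of 9 genes to which HMGA2 is fused in benign tumours, 7 had one at the start site in each large list. LPP, the common partner in lipomas, had the highest fold (24.4, 25.7 and 20.5). NFIB, a partner in pleomorphic adenomas, had the widest peak (11994, 12215 and 11586 bp, fold 8.79, 9.30 and 7.03). RAD51B, FHIT, COX6C, ALDH2 and CCNB1IP1 had folds from 2.67 to 9.28. EBF1 and WIF1 had no promoter peak.

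On chromosome 12, 6 of 8 neighbouring genes were marked at the start site in each large list. TMBIM4 had the highest fold (30.3, 28.5 and 21.2) and IRAK3, an inhibitor of Toll-like receptor signalling, the lowest or near it (4.02, 3.16 and 4.21). LEMD3, a gene of the inner nuclear membrane, had folds of 8.20, 7.72 and 5.53, and MSRB3 had 7.84, 8.10 and 5.79. HELB, a DNA helicase gene, had 4.93, 4.15 and 4.08. WIF1, a WNT inhibitor, and GRIP1, a synaptic scaffold gene, had none. None of these neighbours had a peak as wide as that of HMGA2, since the widest, at LLPH in Hs578T replicate 1, was 3056 bp.

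The letters of 4 motifs were searched in the distal peaks of the window, 34, 31 and 29 in the large lists. An AP-1 match was held by 16, 14 and 12 of them, or 47.1, 45.2 and 41.4%. Over all distal peaks of these lists 52.6, 51.7 and 51% held one. Per kb of peak there were 0.348, 0.292 and 0.267 matches at HMGA2 against 0.458, 0.438 and 0.447 over all distal peaks. The density was thus lower at HMGA2 in each large list, and the GC content was lower too (40.1, 39.8 and 39.9% against 45.1, 45.03 and 44.8%), whose part in this was not tested. At NRP1 and TGFB2 there were 0.355, 0.333 and 0.352 and 0.319, 0.308 and 0.270 per kb. At ADAMTS12 the density was below that of HMGA2 in each large list, at 0.254, 0.250 and 0.262 per kb.

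AP-1 matches were unevenly placed within the locus. The window held 94, of which 41 fell in a region and 34 in a peak of all 3 large lists. On the upstream side 20 matches lay in 51.4 kb of regions (0.389 per kb), and 22 lay outside, where the density was 0.149 per kb. Region 6 held 8 of them, region 5 held 4 and region 1 held 2. In the third intron 17 matches lay in 93.9 kb of regions (0.181 per kb) and 1 outside (0.0530 per kb). Of those, 7 fell in region 17 and 4 in the intronic part of region 24. The promoter and exons 1 to 3 held 0 matches over their 2001 and 13086 bp, all of it inside the promoter peak.

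The match shown for region 1 and that for region 6 are preceded by gc, which makes them matches to the Maf-extended AP-1 letters (GCTGACTCA or GCTGAGTCA, either strand, which contain the AP-1 letters). Such matches numbered 12 in the window, and 5, 6 and 6 distal peaks held one, or 14.7, 19.4 and 20.7%, against 11.3, 11.1 and 10.8% of all distal peaks. Per kb of distal peak the direction was the opposite. The density was 0.0543, 0.0500 and 0.0500 at HMGA2, lower than the 0.0746, 0.0705 and 0.0714 of all distal peaks. TEAD letters were held by 22, 20 and 25 distal peaks, or 64.7, 64.5 and 86.2%, against 59.1, 59.2 and 58.8%. The density of the TEAD letters, 0.771, 0.733 and 0.725 per kb, was close to that of all distal peaks (0.716, 0.712 and 0.721). The NF-κB motif was held by 5, 7 and 6 peaks, or 14.7, 22.6 and 20.7%, against 18.0, 18.1 and 17.2% of all distal peaks. Its density was 0.0652, 0.0666 and 0.0584 per kb, lower than the 0.145, 0.142 and 0.138 of all distal peaks. These counts rest on few peaks that overlap between lists, and a match of letters is not a bound site.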

How the data were processed

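H3K27ac was measured by ChIP-seq in 4 libraries, with groups and replicate numbers taken from the sample titles. Reads were trimmed with Trimmomatic and mapped to hg38 with Bowtie2, peaks were called per library with MACS2 against input, and blacklisted regions were removed, per the labels and methods of the study. The versions and the MACS2 settings are not given in the sources used here, and broad mode is inferred from the 9 columns. Each deposited peak has a score, a fold enrichment (a ratio over background) and −log10 p and q as given by the authors. No reads were used, so depth is unknown, and weak peaks near the limit of a list can appear in one replicate and not in another.

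Peaks on chromosomes 1 to 22 and X were read with Python 3.11.15 and pandas 2.3.3. Sequence names and lengths of the reference matched the lists. Peaks within 200 kb of the HMGA2 body of GENCODE release 44 (assembly 38) were assigned to a section by overlap with 1 kb around the start site and otherwise by midpoint. Regions are peaks of the lists over 10000 peaks, merged where they share at least 1 bp. Distal peaks had a midpoint over 2.5 kb from every canonical start site and were stitched within 12.5 kb. Interval code was tested on simulated data.

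The locus, the gene lists (HMGA family, let-7 axis, genes placed downstream, fusion partners, neighbours), the comparison loci and the motifs were chosen with earlier results of these data known. Peaks described one by one were the promoter peak, the 3 regions highest in mean fold, the 3 widest and those missing from a large list, and the other peaks were added so that every peak is given. The 5 like genes had the smallest maximum absolute log2 ratio of bases covered in the body. Alternatives were other thresholds, windows, stitching distances and start sites, and leaving out each replicate. Calling a peak distal only where no base lay within 2.5 kb of a start site was added after seeing the data.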

Additional observations from a re-analysis of the deposited data

How the results depend on the processing

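No paired analysis was possible because no result comes from a test. Of 93 alternative values over 14 results, 64 stayed within the spread between replicates (1.5 times for counts) and 29 moved. MDA-MB-231 means join a list without peaks at HMGA2 and a full one, so their spread hides most changes. The AP-1 density of that line rests on the full list alone and has no spread between replicates, so any change there counted as moved.

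Keeping the strongest 50% of each list by score gave, per list on average, 6.5 peaks in the window for MDA-MB-231 and 13 for Hs578T (20.5 and 35 in the text). For Hs578T it gave 113086 bp covered in the window, 45759.5 bp in the third intron and 33691 bp in the cluster. It gave 0.363 and 0.303 AP-1 matches per kb in MDA-MB-231 and Hs578T, and 7.5 marked genes of the fixed lists in MDA-MB-231. At a −log10 q of at least 2 MDA-MB-231 had 12.5 peaks and 0.393 AP-1 matches per kb, and Hs578T had 146310 bp covered in the window, 72434.5 bp in the intron and 55810.5 bp in the cluster. Windows of 100 and 50 kb left 13.5 and 13 peaks in MDA-MB-231, 110690 and 108858 bp in Hs578T and, at 50 kb, 22.5 peaks there. The Hs578T cluster covered 61660 bp when stitched within 5 kb. The value was 24193.5 bp when no base of a distal peak could lie within 2.5 kb of a start site. That rule leaves out the peak over the HMGA2-AS1 start, which breaks the cluster, and only the part on the promoter side of the break is counted. AP-1 matches came to 0.484 and 0.343 per kb in the central 500 bp and to 0.280 and 0.238 over all peaks of the window. No density over all distal peaks is given for the central 500 bp, so 0.484 and 0.343 have no background here. Counting peaks that overlap by 50% of both gave 0.636 for the Hs578T pair. Leaving out either MDA-MB-231 replicate gave 0 to 41 peaks and 0 to 24 marked genes, and leaving out either Hs578T replicate moved nothing past these limits.

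Depth is unknown, so a missing weak peak cannot be told apart from a shallow library.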
